A study of Mus musculus with 6 samples.

Results

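Retinal ganglion cells are the neurons whose axons form the optic nerve, and the genes described here are 32 transcripts that mark these cells or serve their surface and axons, out of 35485 genes in each deposited table. The genes were taken by symbol: RNA-binding proteins used as ganglion cell markers, surface and secreted proteins, adhesion and scaffold proteins of the axon initial segment and nodes, small membrane and calcium-binding proteins, and transcription regulators of ganglion cell subtypes. Symbols matched for 31 genes, and Sptbn4 was found under its older symbol Spnb4, so that all 32 were present. Of these, 31 passed the filter on low values, which asked for a mean RPKM (exon reads scaled to exon length and to the total of reads on genes) over 0.3 in sham or in ONC. Bnc2 did not pass, and Foxp2 and Tbx20 passed only through the sham group.

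RNA-seq was performed on whole retinas of wild type C57BL/6 mice aged 12 weeks, in 3 samples with optic nerve crush (ONC; NC in the sample labels) and 3 sham samples. Each sample was a combination of RNA from 6 retinas of 6 mice, so the spread reported here is between pools and not between mice. In ONC mice the nerve was crushed for 10 seconds at 2 mm behind the eye, in sham mice it was exposed and left uncrushed, and retinas of both groups were removed 2 days after surgery. The cell bodies of ganglion cells lie in the retina that was sampled, and the crush site does not. The authors chose day 2 because earlier work on this model found no significant ganglion cell loss before day 3. In reads from tissue of this kind, fewer ganglion cells and less RNA per ganglion cell cannot be told apart.

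By way of background, a ganglion cell sends its axon across the inner retina without myelin, and the axon becomes myelinated behind the eye. Spikes start at the axon initial segment, where ankyrin-G and beta-IV spectrin hold sodium channels and the adhesion molecules of the L1 family in place, and the same scaffold is used at the nodes of Ranvier. Beside each node, contactin and contactin-associated protein on the axon bind the myelin sheath. Ganglion cells also fall into many subtypes, which differ in dendrites, light responses and targets and which express different transcription factors. Several of the genes are made by other retinal neurons too, amacrine cells above all, so a change in whole retina does not say in which cells it arose.

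Sham samples held 17343945 to 18349331 exon reads and ONC samples 20019818 to 20358008. The exon share of reads on genes was 70.9% to 76.6% in sham and 78.5% to 80.4% in ONC (p = 0.1 in a two-sided exact permutation test, which can give no smaller value for 3 samples against 3), and sham replicate 3 was the lowest. RPKM is scaled to exon and intron reads together, and with that scaling the median log2 fold change of all genes was 0.13, against 0.01 with the normalization of exon reads used for the tests (TMM). Levels below are RPKM, and fold changes and tests are from exon reads. Of 7 ganglion cell check genes tested, 6 fell, among them Pou4f2 by 1.39 and Pou4f1 by 0.75 on the log2 scale, while Isl1, which bipolar cells also make, had a log2 fold change of -0.02 (adjusted p = 0.916). None of the 9 amacrine, 10 bipolar, 10 endothelial and mural and 9 Muller glia and astrocyte markers tested passed the test, at 0, 1, 0 and 3 genes with an unadjusted p under 0.05 beside 16.7% of all genes, and of 10 photoreceptor markers 1 rose. Summed RPKM of 10 microglia and macrophage markers was 9.35 to 12.2 in sham and 17.5 to 19.0 in ONC, with none at 0 and 2 of 9 tested higher. Of 4 oligodendrocyte markers tested none passed at either an adjusted p under 0.1 or an unadjusted p under 0.05, and Mobp was at 0. Of 5 horizontal cell markers 2 fell, Prox1 by 0.33 and Calb1 by 0.23, and the median log2 fold change of the 5 was -0.33. Over all genes 3.72% fell and 2.38% rose.

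Across the 32 genes, transcripts after ONC were lower far more often than higher. The genes were chosen with earlier results of these data known, so the counts describe them and are no independent support. With edgeR's quasi-likelihood test and an adjusted p under 0.1, 14 of the 31 genes tested fell and 2 rose, where 3.72% of all 13670 genes fell and 2.38% rose. DEGs, which also needed a fold change above 1.5, were 9 lower and 1 higher, against 0.834% and 0.827% of all genes. The largest falls were in Ctxn3, Pvalb, Fxyd7, Tusc5 and Rbpms2, each at least 2.27-fold lower, and the rises were in Spp1 and Slc17a6. Log2 fold changes ran from -1.40 to 0.67 with a median of -0.31, and 28 of 31 were below 0, Foxp2 and Tbx20 among them, against a median of 0.01 and 47.7% below 0 over all genes. The 3 ONC samples were all lower than the 3 sham samples in 19 genes and all higher in 2, as was so for 10.8% and 11% of all genes, in TMM-normalized reads. Of the 19, Tbx20 passed the filter only through the sham group, and Thy1, Nrn1, Elavl4 and Foxp1 had overlapping groups in RPKM. Jam2 ran the other way in RPKM, at 27.0 to 28.1 in sham and 28.3 to 29.1 in ONC. Without sham replicate 3, the sample with the low exon share, 11 genes fell and 2 rose, and Thy1, Fstl4 and Ank3 were the 3 that no longer passed.

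**Figure D1:**
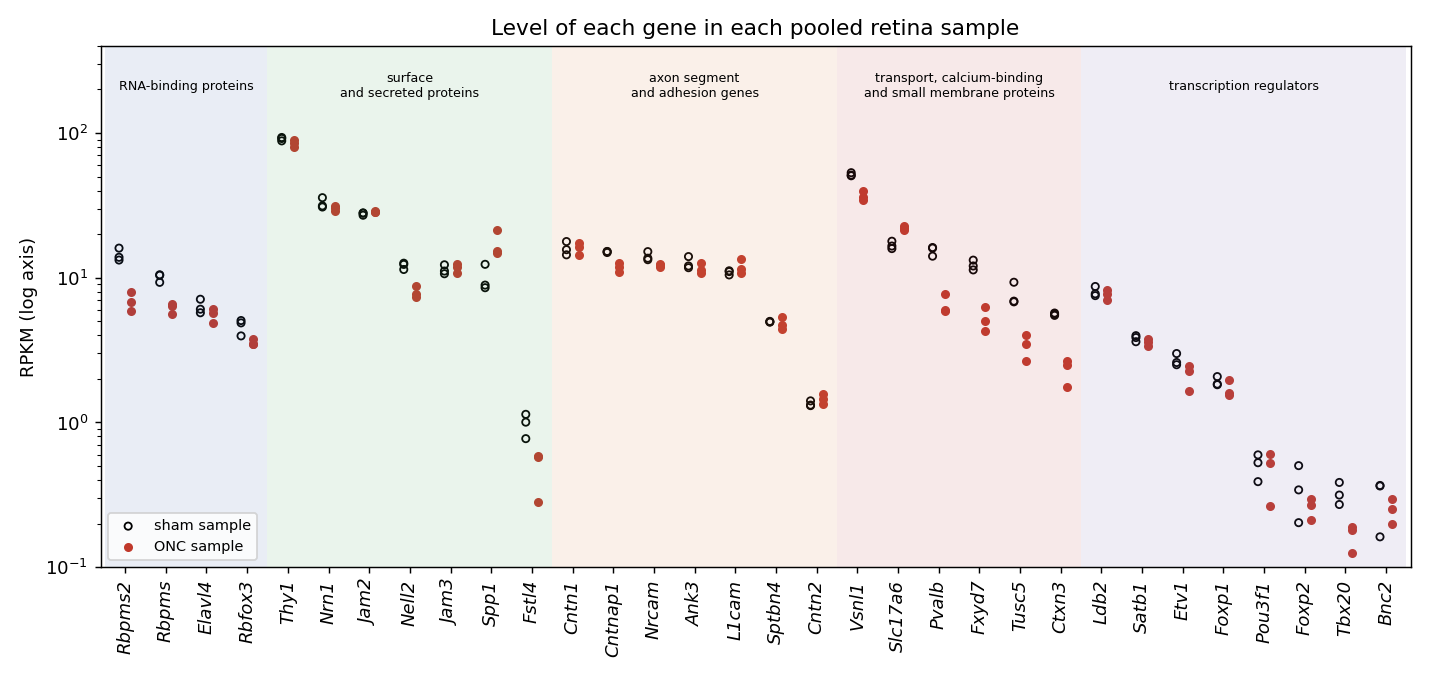
RPKM of each gene on a log axis, with 1 open circle per sham sample and 1 filled circle per ONC sample, grouped by role. Thy1 stood highest, at 80.7 to 93.2 in all samples, 4 transcription regulators lay near or below 0.6, and the ONC samples of Ctxn3, Pvalb, Fxyd7, Tusc5 and Rbpms2 lay clear of the sham samples.

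**Figure D2:**
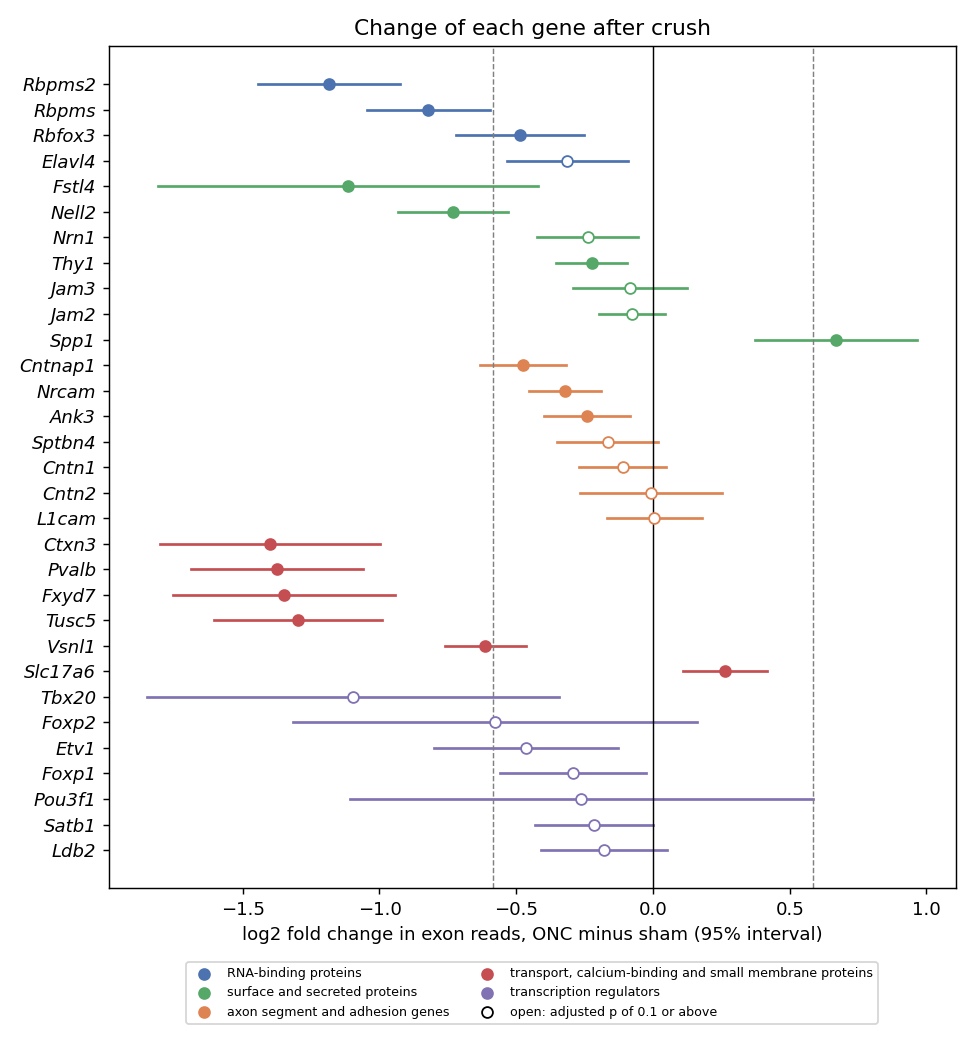
Log2 fold change of exon reads, ONC minus sham, for the 31 genes tested, with 95% intervals, colored by role. Filled points have an adjusted p under 0.1, open points do not, and dashed lines mark a fold change of 1.5 in either direction. The 7 transcription regulators are open points, and Spp1 and Slc17a6 are the filled points right of 0.

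The sequence upstream of the gene start is shown for 4 genes that changed, Rbpms2, Pvalb and Fstl4, which fell, and Spp1, which rose. Windows were available for 18 of the 32 genes from RefSeq (GRCm38.p6), and each below holds the 250 bases before the most upstream start, read on the strand of the gene. Capitals mark the letters of 5 motifs searched on both strands: the homeodomain core TAATTA, the POU4F core letters ATTAAT, which can overlap TAATTA, the cAMP response element TGACGTCA, the AP-1 element TGANTCA and TATAAA.
Rbpms2, chr9:65630332-65630581, plus strand: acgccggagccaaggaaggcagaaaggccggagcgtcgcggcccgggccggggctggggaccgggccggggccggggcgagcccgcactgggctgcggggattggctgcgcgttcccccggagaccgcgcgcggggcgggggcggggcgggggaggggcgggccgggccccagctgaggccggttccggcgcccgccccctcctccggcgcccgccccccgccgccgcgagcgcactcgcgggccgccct
Pvalb, chr15:78206401-78206650, minus strand: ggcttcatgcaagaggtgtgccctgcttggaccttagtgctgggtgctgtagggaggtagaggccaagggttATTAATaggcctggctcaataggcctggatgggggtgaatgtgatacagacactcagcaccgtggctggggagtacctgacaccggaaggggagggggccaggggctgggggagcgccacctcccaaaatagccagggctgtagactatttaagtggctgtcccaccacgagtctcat
Fstl4, chr11:52764456-52764705, plus strand: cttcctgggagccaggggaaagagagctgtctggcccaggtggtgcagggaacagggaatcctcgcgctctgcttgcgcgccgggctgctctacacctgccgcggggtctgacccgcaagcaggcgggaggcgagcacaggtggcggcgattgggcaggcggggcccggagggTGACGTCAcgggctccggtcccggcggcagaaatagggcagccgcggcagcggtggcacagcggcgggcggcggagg
Spp1, chr5:104434861-104435110, plus strand: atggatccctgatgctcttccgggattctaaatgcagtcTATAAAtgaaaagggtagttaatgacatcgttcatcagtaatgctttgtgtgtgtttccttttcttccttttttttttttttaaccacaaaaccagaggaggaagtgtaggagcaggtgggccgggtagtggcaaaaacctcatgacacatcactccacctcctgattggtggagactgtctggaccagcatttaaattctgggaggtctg
The window of Rbpms2 was 84.8% G and C, and that of Spp1 was 43.6%, against a median of 52.4% over 32851 windows. Pvalb held ATTAAT with its first base 178 bases before the start, Fstl4 held TGACGTCA 77 bases before, and Spp1 held TATAAA 211 bases before. Of 38 windows at all starts of the 18 genes, 6 held TAATTA, 4 held ATTAAT, 1 held TGACGTCA, none held TGANTCA and 3 held TATAAA, and windows of a gene can overlap. Of all windows, 4.84%, 4.39%, 1.55%, 6.75% and 12.4% held these motifs, in the same order. These matches describe letters only. The most upstream windows of Slc17a6, Vsnl1, Rbfox3 and Nrcam, which also passed the test, held none of the motifs and are not shown.

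Of the 4 RNA-binding proteins, 3 fell and none rose, where 3.72% of all genes fell and 2.38% rose. In all 4 the TMM-normalized reads of every ONC sample were below those of every sham sample, as for 10.8% of all genes. Rbpms2 (chr9:65630582-65660518), a marker of ganglion cells across subtypes, changed most. Its RPKM was 13.3, 16.03 and 13.8 in sham and 7.92, 6.78 and 5.93 in ONC, or 14.4 ± 1.46 against 6.88 ± 0.997 (SD, n = 3 each). The highest ONC sample was thus well under the lowest sham sample, a 2.27-fold lower level (log2 fold change -1.18, 95% interval -1.44 to -0.93, adjusted p = 4.26e-06). Of its exon reads 86.5% mapped uniquely, and the call held on unique reads.

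Rbpms (chr8:33782644-33929841), the paralog that is the more widely used ganglion cell marker, had an RPKM of 9.29, 10.5 and 10.4 in sham and 5.61, 6.62 and 6.41 in ONC. The groups did not overlap, and the level was 1.77-fold lower in ONC (log2 fold change -0.82, 95% interval -1.05 to -0.60, adjusted p = 6.23e-05). Rbfox3, a splicing regulator known as NeuN, had an RPKM of 5.06, 4.88 and 3.96 in sham and 3.78, 3.49 and 3.49 in ONC. Sham replicate 3 was close to the ONC samples, and the fall was smaller (log2 fold change -0.49, SE 0.11, adjusted p = 0.0148). It did not pass with limma on log2(RPKM + 0.1) or log2(RPKM + 1) (adjusted p = 0.139 and 0.14). Elavl4, a neuronal protein that binds and stabilizes mRNA, had a log2 fold change of -0.31 (95% interval -0.53 to -0.09, adjusted p = 0.116). Its RPKM overlapped between groups, at 5.73 to 7.10 in sham and 4.86 to 6.04 in ONC.

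The 7 surface and secreted proteins split in size and direction: 3 fell, 1 rose and 3 did not pass, with a median log2 fold change of -0.22. Over all genes 3.72% fell and 2.38% rose. Thy1, the surface glycoprotein long used to label ganglion cells, was the most abundant of the 32 transcripts by RPKM, and it fell only slightly. Its RPKM was 93.2, 88.3 and 91.7 in sham and 85.0, 89.2 and 80.7 in ONC. ONC replicate 2 lay within the sham range on this scale, although TMM-normalized reads did not overlap. The log2 fold change was -0.22 (95% interval -0.36 to -0.09, adjusted p = 0.0517), so the interval ended short of a 1.5-fold fall. The call was lost without sham replicate 1 (adjusted p = 0.112), sham replicate 3 (0.284) or ONC replicate 3 (0.222), and with the scaling of RPKM the log2 fold change was -0.10 (adjusted p = 0.395).

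Nell2, a secreted glycoprotein with EGF-like repeats that acts in axon guidance, fell more. Its RPKM was 12.6, 11.4 and 12.4 in sham and 8.74, 7.76 and 7.38 in ONC, and the groups did not overlap. The level was 1.66-fold lower (log2 fold change -0.73, SE 0.10, adjusted p = 6.65e-05). Fstl4 (chr11:52764706-53187347), a secreted follistatin-like protein, was scarce, with 22 to 85 exon reads per sample. Its RPKM was 1.005, 1.14 and 0.773 in sham and 0.583, 0.284 and 0.581 in ONC, so every ONC sample lay below the sham samples and ONC replicate 2 lay furthest. The log2 fold change was -1.12, with a wide 95% interval of -1.81 to -0.42 (adjusted p = 0.0683), and no call was made without sham replicate 1, 2 or 3 or ONC replicate 2 or 3 (adjusted p = 0.142, 0.261, 0.13, 0.292 and 0.124).

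Spp1 (chr5:104435111-104441053), which encodes osteopontin, a secreted phosphoprotein that marks alpha ganglion cells and is also made by microglia and macrophages, rose. Its RPKM was 12.4, 8.54 and 8.90 in sham and 14.7, 21.5 and 15.4 in ONC. All ONC samples lay above the sham samples, with ONC replicate 2 the highest and sham replicate 1 the highest of its group. The level was 1.59-fold higher (log2 fold change 0.67, 95% interval 0.37 to 0.97, adjusted p = 0.00772). Leaving out each sample in turn kept an adjusted p under 0.1, but without sham replicate 2 or ONC replicate 2 the log2 fold change was 0.55 and 0.50, under the fold change required of a DEG. Of 9 microglia and macrophage markers tested, 2 rose too, Itgam and Cd68 (adjusted p = 0.0903 and 0.0912). Itgam went from an RPKM of 0.577 ± 0.161 to 1.06 ± 0.111 (SD, n = 3 each). Cd68 went from 0.730 ± 0.363 to 2.23 ± 1.18 with overlapping groups, on 10 to 85 exon reads per sample. The other 7 did not pass. Of the 9, only Aif1 had a log2 fold change below 0, at -0.32, and the median was 0.76. An unadjusted p under 0.05 was found for 6 of the 9, beside 16.7% of all genes. The part of these cells in the Spp1 change was not tested.

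The remaining surface proteins did not pass the test. Nrn1, or neuritin, a lipid-anchored protein that promotes neurite growth, had an RPKM of 32.7 ± 2.70 in sham and 30.2 ± 1.27 in ONC (SD, n = 3 each; log2 fold change -0.24, 95% interval -0.42 to -0.06, adjusted p = 0.158). The junctional adhesion molecules had intervals close to 0. For Jam2, which marks a ganglion cell subtype, the log2 fold change was -0.08 (95% interval -0.20 to 0.05), and for Jam3 it was -0.08 (95% interval -0.29 to 0.12). Both signs turned with the scaling of RPKM.

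Beside 3.72% of all genes lower and 2.38% higher, 3 of the 7 axon segment and adhesion genes fell and none rose. None of the 7 reached a fold change of 1.5. Those that fell numbered 1 with the scaling of RPKM and with both limma fits, and 5 without ONC replicate 1, when Sptbn4 and Cntn1 passed too (adjusted p = 0.0339 and 0.0688). All were measured closely, with a median 95% half-width of 0.16 on the log2 scale, and for 6 of 7 the whole interval lay within a 1.5-fold change in either direction. Cntnap1, the contactin-associated protein of paranodes, fell most. Its RPKM was 14.9, 15.1 and 15.2 in sham and 12.6, 11.02 and 11.8 in ONC. The sham samples were almost equal and lay above all ONC samples (log2 fold change -0.48, 95% interval -0.63 to -0.32, adjusted p = 0.000522).

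Nrcam, an L1 family adhesion molecule held at the initial segment and nodes, had an RPKM of 13.7, 15.2 and 13.3 in sham and 11.9, 12.3 and 12.5 in ONC. The groups did not overlap, and the log2 fold change was -0.32 (95% interval -0.45 to -0.19, adjusted p = 0.00403), or -0.20 with the scaling of RPKM (adjusted p = 0.11). Ank3, which encodes ankyrin-G, the organizer of the initial segment, had an RPKM of 12.1, 14.0 and 11.7 in sham and 12.6, 10.8 and 11.3 in ONC. The groups overlapped, with ONC replicate 1 inside the sham range. The log2 fold change was -0.24 (95% interval -0.40 to -0.09, adjusted p = 0.0819), or -0.12 with the scaling of RPKM (adjusted p = 0.342). This call was lost without sham replicate 2 (adjusted p = 0.376), sham replicate 3 (0.213), ONC replicate 2 (0.306) or ONC replicate 3 (0.244).

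The other 4 axon genes did not pass. Sptbn4, which encodes beta-IV spectrin, had an RPKM of 4.96 ± 0.0291 in sham and 4.81 ± 0.489 in ONC (SD, n = 3 each), and its log2 fold change was -0.17 (95% interval -0.35 to 0.02). Cntn1, the axonal partner of Cntnap1 at the paranode, had a log2 fold change of -0.11 (95% interval -0.27 to 0.05), so Cntnap1 passed and Cntn1 did not. This difference between the genes was not tested. Cntn2, a contactin of the juxtaparanode, stood at -0.01 (95% interval -0.27 to 0.25), and L1cam, a growth-promoting adhesion molecule of axons, at 0.00 (95% interval -0.17 to 0.18). The signs of Cntn1 and Cntn2 turned with the scaling of RPKM, and that of L1cam, at 0.00, turned between normalizations.

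The 6 transport, calcium-binding and small membrane proteins moved most, with 5 DEGs lower, 1 gene higher and a median log2 fold change of -1.32. Over all genes 0.834% were DEGs lower and 2.38% rose. The groups did not overlap in any of the 5 DEGs, where every ONC sample was below every sham sample for 10.8% of all genes. Ctxn3, which encodes the small neuronal membrane protein cortexin 3, had an RPKM of 5.70, 5.59 and 5.50 in sham and 1.75, 2.67 and 2.51 in ONC. The sham samples differed little, and the level was 2.64-fold lower in ONC (log2 fold change -1.40, 95% interval -1.80 to -0.998, adjusted p = 0.000107). Pvalb (chr15:78191117-78206351), the calcium buffer parvalbumin, which in mouse retina is found in ganglion and amacrine cells, had an RPKM of 14.1, 16.02 and 16.2 in sham and 5.86, 7.69 and 5.97 in ONC. It was 2.59-fold lower (log2 fold change -1.37, 95% interval -1.69 to -1.06, adjusted p = 7.6e-06).

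Fxyd7, a brain-enriched regulatory subunit of the sodium-potassium pump, had an RPKM of 12.1, 13.2 and 11.3 in sham and 6.29, 4.27 and 5.003 in ONC, a 2.55-fold lower level (log2 fold change -1.35, SE 0.19, adjusted p = 0.000184). Its exon length is short and it rested on 72 to 215 reads per sample. Tusc5, now named Trarg1 and known from fat cells as a regulator of glucose transporter trafficking, had an RPKM of 6.89, 9.31 and 6.82 in sham and 3.99, 3.49 and 2.68 in ONC. Sham replicate 2 was the highest and the groups did not overlap (2.46-fold lower, log2 fold change -1.30, SE 0.15, adjusted p = 1.12e-05). Vsnl1, the calcium sensor visinin-like 1, was the second most abundant transcript of the 32 by RPKM. It stood at 51.2, 50.7 and 53.2 in sham and 34.2, 40.1 and 36.4 in ONC, a 1.53-fold lower level just past the fold required of a DEG (log2 fold change -0.61, 95% interval -0.76 to -0.47, adjusted p = 1.37e-05).

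Slc17a6, the vesicular glutamate transporter VGLUT2 that loads glutamate into synaptic vesicles of ganglion cells, was the exception in its group. Its RPKM was 16.6, 15.9 and 17.9 in sham and 21.3, 22.7 and 22.0 in ONC. All ONC samples were higher, and the level in normalized exon reads was 1.20-fold higher (log2 fold change 0.26, 95% interval 0.11 to 0.42, adjusted p = 0.0525). The call was lost without sham replicate 1 (adjusted p = 0.198), sham replicate 2 (0.286), ONC replicate 2 (0.146) or ONC replicate 3 (0.168), with log2 fold changes of 0.21 to 0.26. The genes that rose then numbered 1 in place of 2.

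**Figure D3:**
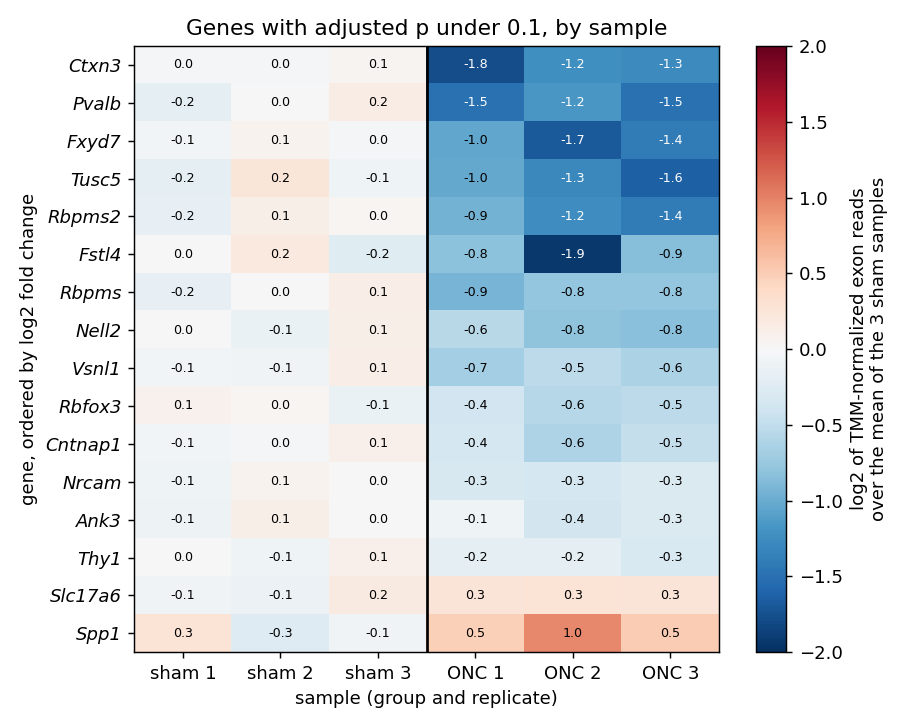
Log2 of TMM-normalized exon reads over the mean of the 3 sham samples, for the 16 genes that passed the test, in each of the 6 samples. Each ONC sample was below 0 for the 14 genes that fell and above 0 for Spp1 and Slc17a6. Ank3 in ONC replicate 1 was the value nearest to 0.

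None of the 7 transcription regulators tested passed in either direction, where 3.72% of all genes fell and 2.38% rose. Of the 7, 4 had an unadjusted p under 0.05, Tbx20 among them, as did 16.7% of all genes. Foxp2 and Tbx20 entered the test only through their sham level, which favored a negative sign. The log2 fold changes of the other 5 were below 0, with a median of -0.26. Ldb2, a cofactor of LIM homeodomain proteins, was the most abundant, with an RPKM of 7.99 ± 0.627 in sham and 7.67 ± 0.611 in ONC (SD, n = 3 each; log2 fold change -0.18, 95% interval -0.41 to 0.05, adjusted p = 0.442). Satb1, a chromatin organizer of direction-selective ganglion cells, had an RPKM of 3.82 ± 0.186 and 3.58 ± 0.190 (log2 fold change -0.22, 95% interval -0.43 to -0.00, adjusted p = 0.297). Etv1, an ETS factor, stood at 2.70 ± 0.260 and 2.12 ± 0.428 (log2 fold change -0.46, 95% interval -0.80 to -0.13, adjusted p = 0.126), and 84.0% of its exon reads mapped uniquely. It passed without the filter on RPKM (adjusted p = 0.0502) and without ONC replicate 1 (log2 fold change -0.60, adjusted p = 0.0175). For Ldb2 and Satb1 the intervals ended short of a 1.5-fold fall, and for Etv1 the interval did not.

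The forkhead factors Foxp1 and Foxp2 mark a family of small ganglion cells. Foxp1 had an RPKM of 1.91 ± 0.140 in sham and 1.70 ± 0.228 in ONC (log2 fold change -0.29, 95% interval -0.56 to -0.03, adjusted p = 0.244), and it passed on total gene reads, introns counted in (-0.80, adjusted p = 0.0108). Foxp2, at 33 to 87 exon reads per sample, had an RPKM of 0.349 ± 0.150 and 0.258 ± 0.0422 (log2 fold change -0.58, 95% interval -1.32 to 0.16, adjusted p = 0.435). At this depth the interval of Foxp2 took in both no change and a fall of over 1.5-fold.

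Tbx20, a T-box factor, came closest to the threshold. Its RPKM was 0.271, 0.315 and 0.385 in sham and 0.126, 0.181 and 0.190 in ONC. All ONC samples were lower, on 22 to 65 exon reads per sample, and the log2 fold change was -1.10 (95% interval -1.85 to -0.34, adjusted p = 0.104). It passed with the DESeq2 Wald test (adjusted p = 0.0628), without the filter on RPKM (0.0739) and on unique exon reads (0.0911). Pou3f1, a POU factor, rested on 20 to 45 reads and had a log2 fold change of -0.26 (95% interval -1.11 to 0.59). The zinc finger gene Bnc2, which was not tested, had an RPKM of 0.298 ± 0.117 in sham and 0.248 ± 0.0476 in ONC (SD, n = 3 each) on 25 to 58 exon reads per sample.

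Set side by side, 7 of 14 surface and axon segment genes were called (6 lower, 1 higher) and 0 of 7 transcription regulators. Over all genes 3.72% fell and 2.38% rose, so a count of 0 of 7 is near that share. Median log2 fold changes were -0.20 for the surface and axon segment genes and -0.26 for the 5 regulators above the RPKM minimum in both groups. No test was made between these groups, and the counts moved with the processing. Surface and axon calls numbered 4 with the scaling of RPKM, 3 and 4 with limma on log2(RPKM + 0.1) and log2(RPKM + 1), 4 without sham replicate 3 or ONC replicate 3, 4 at an adjusted p under 0.05 and 10 without ONC replicate 1. Regulator calls numbered 1 with the DESeq2 Wald test, on unique exon reads, on total gene reads and without ONC replicate 1, and 2 without the filter on RPKM. The groups of genes differed in depth: median exon reads were 1326 per gene and sample for the surface and axon genes and 256 for the regulators, and 1 of 14 against 4 of 8 genes had a sample with fewer than 50 exon reads. The median 95% half-width was 0.18 for the surface and axon genes and 0.34 for the regulators. Intervals lay wholly within a 1.5-fold change for 10 of 14 surface and axon genes and for 3 of 7 regulators. They reached past a 1.5-fold fall for 3 of 14 and 4 of 7, and the 4 include Foxp2 and Tbx20. At these depths, the lack of a call among the regulators does not show that they kept their level.

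Intron reads gave a second readout at the same genes, and whether they came from unspliced RNA of these genes was not tested. Reads on introns were taken as all reads on a gene less its exon reads, and 26 of the 32 genes had a mean of at least 10. With edgeR, 2 of the 26 were lower, Rbpms and Foxp1, and none was higher, where 2.37% of 13317 genes were lower and 0.511% higher. At an unadjusted p under 0.05 there were 8 of the 26, and 17.4% of all genes in this fit. The log2 fold changes of intron reads were below 0 for 21 of 26 genes, with a median of -0.26, against 47.8% and 0.03 over all genes. All 11 genes that fell in exon reads and had enough intron reads also had intron log2 fold changes below 0. These 11 were picked by exon reads of the same samples, and the same count was not made for all genes that fell. Some of the signs rest on few reads, as for Cntnap1 (-0.02, SE 0.53) and Thy1 (-0.12, SE 0.54).

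Rbpms had 289, 305 and 341 intron reads in sham and 168, 141 and 168 in ONC. The groups did not overlap, and the intron log2 fold change was -0.92 (SE 0.19, adjusted p = 0.0465), beside -0.82 in exon reads. Foxp1 had 325, 403 and 697 intron reads in sham and 191, 131 and 295 in ONC, with sham replicate 3 far above the others and no overlap. Its intron log2 fold change was -1.17 (SE 0.26, adjusted p = 0.0655), beside -0.29 in exon reads. Among the scarce regulators with intron reads, Foxp2, Bnc2 and Tbx20 had intron log2 fold changes of -1.49, -1.51 and -0.07, none of which passed (adjusted p = 0.208, 0.201 and 0.896). Slc17a6 had an intron log2 fold change of 0.73 (adjusted p = 0.356). Both intron calls were lost without sham replicate 2 (adjusted p = 0.12 for each), without ONC replicate 2 (0.318 for each) and without ONC replicate 3 (0.186 for Rbpms and 0.18 for Foxp1), and that of Foxp1 also without sham replicate 3 (0.127). Over all genes no intron call was made without sham replicate 2 or ONC replicate 2, and 1 was made without ONC replicate 3.

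The exon and intron changes of a gene were also compared within 1 model. None of the 25 genes in it passed, 3 had an unadjusted p under 0.05, and of all 11324 genes 0.0353% passed and 13.6% had an unadjusted p under 0.05. The 3 were Tbx20 (exon minus intron log2 change -1.02, 95% interval -1.69 to -0.35, adjusted p = 0.209), Nrn1 (-0.78, 95% interval -1.42 to -0.13, adjusted p = 0.29) and Foxp1 (0.85, 95% interval 0.16 to 1.53, adjusted p = 0.285). Tbx20 had 623 to 963 intron reads per sample against 22 to 65 exon reads, and its intron log2 fold change was -0.07. The median 95% half-width of the comparison over the 25 genes was 0.67, so differences smaller than this were mostly not detectable.

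**Figure D4:**
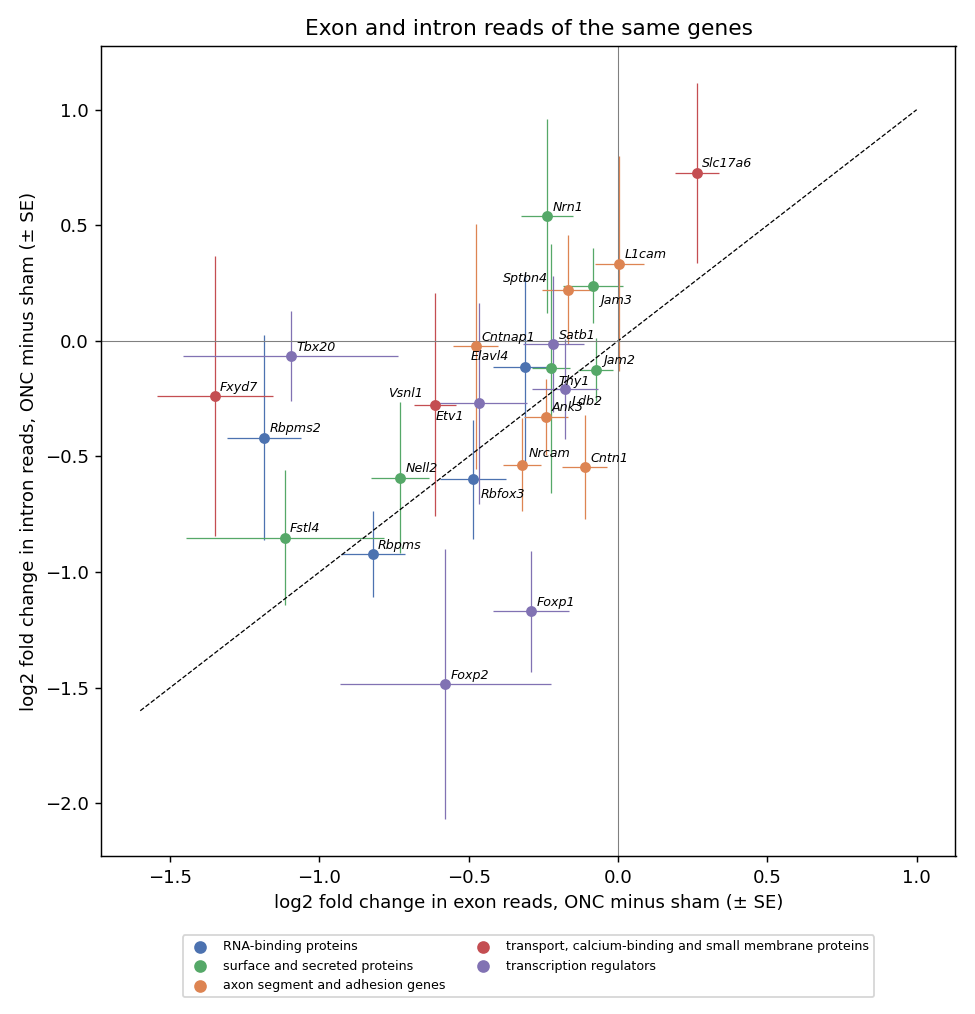
Log2 fold change of intron reads against that of exon reads for the 25 genes with both, ONC minus sham, with bars of 1 SE and a dashed line of equal change. Rbpms lies close to the line, Foxp1 lies below it at -1.17 in intron reads, and Tbx20 and Fxyd7 lie above it with intron changes nearer to 0 and wide bars for Fxyd7.

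Genes of the same pathways outside the 32 were described from lists of their own. Their counts stand beside 3.72% of all genes that fell and 2.38% that rose. Of 22 other genes of the axon initial segment and nodes, 11 fell and none rose, with a median log2 fold change of -0.26, beside -0.17 for the 7 axon genes above. Scn4b, a sodium channel beta subunit, had by far the largest fall, from an RPKM of 1.51 ± 0.170 to 0.179 ± 0.0420 (SD, n = 3 each; log2 fold change -3.20, SE 0.28, adjusted p = 4.55e-07). Scn4b had 16 to 167 exon reads per sample and passed the filter on RPKM only through the sham group, which favored a negative sign. The others named by rule were Fgf12, an intracellular sodium channel partner (-0.63, adjusted p = 7.67e-05), the channel subunit Scn2b (-0.61, adjusted p = 9.76e-05) and the potassium channel Kcna2 (-0.52, adjusted p = 0.000976). Of 12 other contactin, contactin-associated, L1 family and Ncam genes tested, 2 fell: Ncam2, a neural adhesion molecule (-0.60, adjusted p = 0.00309), and Cntnap5a (-0.70, adjusted p = 0.0751).

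Of 24 other ganglion cell subtype genes, 5 fell and none rose, where 3.72% of all genes fell and 2.38% rose. The median log2 fold change of the 24 was -0.29. The largest falls that passed were in Trhr, a receptor for thyrotropin-releasing hormone (-1.14, adjusted p = 0.0498), Opn4, the photopigment melanopsin (-0.78, adjusted p = 0.0626), Ebf1, a transcription factor (-0.74, adjusted p = 0.0122), and Calb2, the calcium-binding protein calretinin (-0.55, adjusted p = 2.62e-06). Calb2 was the most abundant of these, with an RPKM of 199 ± 5.52 in sham and 149 ± 6.99 in ONC. Of 30 tested relatives of the 32 genes by family, 4 fell and 1 rose, with a median of -0.09. They included the calcium sensors Ncs1 (-0.40, adjusted p = 0.0184) and Hpca (-0.33, adjusted p = 0.00499), which are related to Vsnl1, and Nell1, the paralog of Nell2 (-0.50, adjusted p = 0.0365). Fxyd1, a pump regulator related to Fxyd7, rose (0.46, adjusted p = 0.0244) where Fxyd7 fell.

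**Figure D5:**
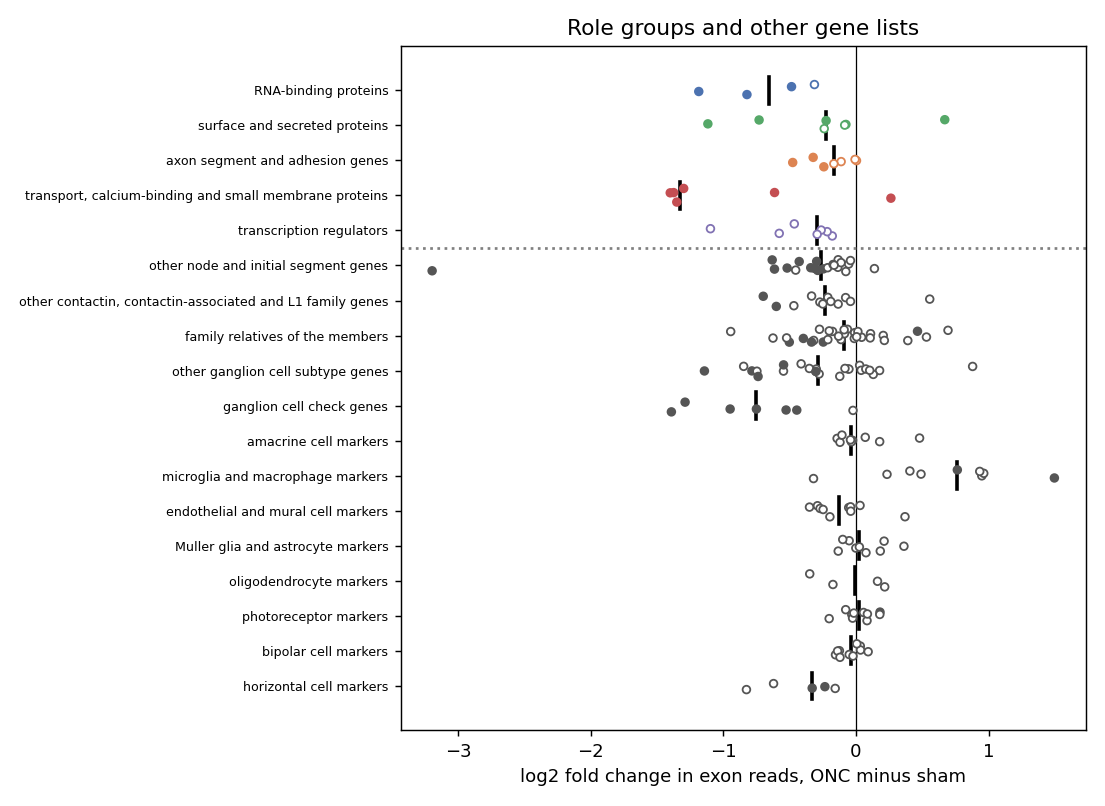
Log2 fold change of exon reads for each gene tested, by role group (colored, above the dotted line) and by other gene list (grey, below it). Filled points have an adjusted p under 0.1 and bars are medians. The medians of the RNA-binding and of the transport, calcium-binding and small membrane groups lie at -0.65 and -1.32. Those of amacrine, bipolar, photoreceptor and glial markers lie near 0, that of horizontal cell markers lies at -0.33 and that of microglia markers at 0.76.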

How the data were processed

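RNA-seq libraries of 3 ONC and 3 sham samples were made by the authors with a TruSeq RNA kit and sequenced as paired ends on 1 lane. Groups and replicate numbers were taken from the labels. The authors mapped reads with CLC Genomics Workbench 6.0.1 and deposited, per gene and sample, raw counts on exons and on whole genes, and RPKM computed from all reads on genes. The kit does not mark strand, so genes that overlap on opposite strands cannot be told apart. The study names mm9, but positions in the files match GRCm38 for 32 of 32 genes here and for 29864 of 29908 symbols in RefSeq, and they are given as in the files.

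Total exon counts were tested for the 13670 genes whose mean RPKM exceeded 0.3 in sham or in ONC, with edgeR 4.0.16 in R 4.3.3 (TMM, glmQLFit, glmQLFTest, condition only, Benjamini-Hochberg). Passed means an adjusted p under 0.1, and a DEG also has a fold change above 1.5. The common biological coefficient of variation was 9.17%. The SE is the log2 fold change over the square root of F. Intron counts, 13317 genes with a mean of at least 10, and the interaction of read class and condition with a sample block, 11324 genes, were fitted likewise. Intervals cover the spread between these pools. All 32 genes are named, with values in every sample for those that passed. From each other list up to 4 of the largest changes that passed are named, and Pou4f1, Pou4f2 and Isl1. Values of Tbx20 and intron reads of Rbpms and Foxp1 in every sample, and the genes of the exon and intron comparison, were chosen after they were seen.

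The genes and lists were chosen with earlier results of these data known, so no list was tested and none is independent support. Of 173 list genes, 5 were matched by older symbols. The fits were tested on simulated data. Alternatives were DESeq2 1.42.0 size factors and Wald test, library sizes as in RPKM or as summed exon reads, limma 3.58.1 on log2(RPKM + 0.1) and log2(RPKM + 1), no filter, a mean RPKM above 1, a mean of at least 50 intron reads, unique reads, total gene reads, an adjusted p under 0.05, a replicate block, and fits without each of the 6 samples. Tables and figures were made with Python 3.11.15, numpy 2.4.6, pandas 2.3.3, scipy 1.17.1 and matplotlib 3.10.9.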

Additional observations from a re-analysis of the deposited data

How the results depend on the processing

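Over 17 alternatives of the exon fit, 10 genes kept their direction and their call in each: Rbpms, Rbpms2, Spp1, Nell2, Cntnap1, Fxyd7, Tusc5, Ctxn3, Vsnl1 and Pvalb. Over the 31 genes tested here and these alternatives, 30 values lost the call, 14 gained it and 10 that were not called turned sign by at least their SE. The other 469 kept the call or the lack of one. Among those not called, they include turns of sign by less than the SE, as for Cntn2 and L1cam. Genes that fell numbered 9 in place of 14 with limma on log2(RPKM + 0.1), and genes that rose numbered 1 in place of 2 at an adjusted p under 0.05. Without 1 replicate, 11 to 18 genes fell and 1 to 2 rose, and DEGs were 7 to 9 lower and 0 to 1 higher, with 0 without sham replicate 2 or ONC replicate 2. Genes lower in intron reads numbered 0 to 6 in place of 2, with 6 without sham replicate 1, 1 without sham replicate 3 and 0 without sham replicate 2, ONC replicate 2 or ONC replicate 3. The cause was not tested.

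Over all genes, 508 fell and 325 rose. With the scaling of RPKM 223 fell and 1507 rose, with limma on log2(RPKM + 0.1) 143 and 978, on log2(RPKM + 1) 147 and 1011, and on total gene reads 784 and 359. Without ONC replicate 1 they were 1262 and 769, and without another replicate 219 to 443 and 152 to 263. Without 1 replicate the intron counts over all genes were 0 to 743 lower and 0 to 171 higher in place of 315 and 68. The interaction of read class and condition gave 1 lower and 3 higher, and 13 and 30 with a mean of at least 50 intron reads. The replicate numbers shared by the groups did not pair the samples: deviations of same-numbered samples from their group means correlated at -0.07, -0.02 and 0.00. With a replicate block 13 genes fell and 2 rose, Ank3 being lost (adjusted p = 0.115), and 3 were lower in intron reads, Foxp2 being added (adjusted p = 0.0974). Depth limits Fstl4 and the 4 transcription regulators that had a sample under 50 exon reads.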
